A study of Mus musculus with 18 samples.

Results

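Genes that mark resident or recruited macrophages, 10 in all, were followed in single cells of the postnatal mouse heart. The resident set comprised Mrc1, Lyve1, Cd163, Timd4, Folr2 and Cbr2, and the recruited and monocyte set comprised Ccr2, Plac8, Ly6c2 and Cx3cr1. They are 10 of the 35843 Ensembl genes in the deposited matrices, were chosen by name, and all 10 had at least 1 unique molecular identifier (UMI, a tag that counts 1 captured transcript) in macrophage wells. A macrophage well was one in which 2 or more of C1qa, C1qb and C1qc, the chains of complement C1q, were detected, and 3375 of 12827 passing wells of the 4 stages and 1749 of 6993 passing wells of the knockdown met this rule. No member took part in that choice.

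The study asked how cardiomyocytes (CMs) mature after birth, and its mice carried the Myh6/Esr1-Tomato transgenes, in which a tamoxifen-inducible Cre driven by Myh6, and so active in CMs and not in macrophages, switches on a TDtomato reporter. Hearts of these mice without knockdown were taken on postnatal day 4 (P4), day 7 (P7), day 14 (P14) or day 28 (P28). By the well reports the first 3 ages had 2 animals each and P28 had 5, and mothers had received tamoxifen in the first days after birth. For the knockdown, mice of the same labelled strain had lentivirus with a hairpin against Jun (shJun) or a non-targeting hairpin (shNT) injected into the heart at P1, and cells were taken at P28 from 2 animals each. P4 and P7 ventricles were digested with a kit and P14 and P28 hearts by Langendorff perfusion. CMs and non-cardiomyocytes (NCMs) of the older hearts were parted by centrifugation. For P7 hearts of its other experiments the study describes parting by adherence instead. Cells were sequenced on ICELL8 nanowell chips that each held 1 stage, so age, digestion, parting and chip cannot be told apart. Each P14 animal was on 1 chip of its own, while each P4 and P7 animal was on 2 chips. At P14 a difference between animals thus cannot be told apart from one between chips.

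Heart macrophages arise from embryonic precursors that seed the tissue and renew there, and from blood monocytes that enter later. The long-lived resident cells are known for TIMD4, LYVE1 and FOLR2 and for the scavenger receptors MRC1 and CD163, whereas cells that recently derived from monocytes are known for the chemokine receptor CCR2 and for the monocyte surface protein Ly6C. In bulk sums of wells, fewer cells of a type and less RNA per cell cannot be told apart.

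Mrc1 (ENSMUSG00000026712, chr2:14229392-14332057) encodes the mannose receptor. Lyve1 (ENSMUSG00000030787, chr7:110850607-110863239) encodes a hyaluronan receptor that lymphatic endothelium also carries. Cd163 (ENSMUSG00000008845, chr6:124304656-124330527) encodes the haemoglobin-haptoglobin receptor. Timd4 (ENSMUSG00000055546, chr11:46810800-46844332) encodes a phosphatidylserine receptor for apoptotic cells. Folr2 (ENSMUSG00000032725, chr7:101839988-101857194) encodes folate receptor beta. Cbr2 (ENSMUSG00000025150, chr11:120729489-120732114) encodes a carbonyl reductase. Ccr2 (ENSMUSG00000049103, chr9:124101950-124113557) encodes the receptor that draws monocytes into tissue. Plac8 (ENSMUSG00000029322, chr5:100553725-100572245) is a gene of monocytes and several other leukocytes. Ly6c2 (ENSMUSG00000022584, chr15:75108158-75111970) encodes Ly6C of inflammatory monocytes and has a near-identical neighbour, Ly6c1, with which it may share reads. Cx3cr1 (ENSMUSG00000052336, chr9:119901616-120069879) encodes the fractalkine receptor. Positions are on mm10. An antisense gene overlaps an exon of Folr2 (Gm10602) and of Cx3cr1 (Gm33858), and since the strand setting of the counting is not given in the sources used here, reads of such partners could not be told apart.

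Start sites of 9 of the 10 genes were found in the RefSeq promoter table (GRCm38.p6, 250 bases before to 50 after each start), and short stretches are shown because shJun targets a subunit of the factor AP-1 and because ETS factors such as PU.1 act in all macrophages. The AP-1 letters TGANTCA, read on both strands, were in a window of 1 of the 9 genes and in 7.81% of 32851 promoters. The ETS-type letters GAGGAA, on both strands, were in a window of 4 of the 9 genes and in 28.3% of promoters. The counts of 9 are over genes, where Ly6c2 has more than 1 start, and the percents are over single promoters. Capitals mark the letters, or their reverse complement for Mrc1. Starts are those of the RefSeq table, and the Folr2 and Cbr2 stretches lie inside the gene spans given above. Folr2 lies at chr7:101845387-101845416 (minus strand), Cbr2 at chr11:120732083-120732112 (minus), Ly6c2 at chr15:75112062-75112091 (minus) and Mrc1 at chr2:14229367-14229396 (plus).
Folr2, AP-1, 74 bases before a start: actagaccaaaTGACTCAtgggagcccaga
Cbr2, ETS, 79 bases before the start: gagctacccttgGAGGAAgcgggtcatgcc
Ly6c2, ETS, 108 bases before a start: catgttggccctGAGGAAgtaagaaccaaa
Mrc1, ETS, 35 bases before the start: aaaagggacagcTTCCTCtgtcctcctttt
A match is a description of these letters and not a binding site, and no binding was measured.

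The 11 stage sums of macrophage wells held between 39 and 1113 wells and between 633833 and 20365280 UMIs, and the 4 knockdown sums between 14735088 and 53836213 UMIs. Csf1r, the receptor for the main macrophage growth factor, was detected in 30.4 to 64.1% of the macrophage wells of each animal, and in 48.6 to 76.8% of wells with at least 10 C1q UMIs, so many wells with a few C1q UMIs were thinly marked as macrophages, and values for these C1q-rich wells are given where stated. The median number of C1q UMIs per macrophage well was 45 at P4, 30 in P7 animals, 28 at P14, 8 at P28, 6 in shNT and 8 in shJun. All 8 CM marker genes had UMIs in each stage sum, and together they held 18993 to 20162 CPM at P4 (CPM, the UMIs of a gene scaled to 1000000 UMIs of the sum), 5492 to 17887 at P14 and 4502 to 12679 at P28. The erythroid genes (6 markers, led by the globins) held 424 to 932 CPM at P4, 188804 to 227846 at P14 and 5963 to 216932 at P28. Xist, which is transcribed in female cells, held 120 and 238 CPM in the P4 animals, 1.42 and 2.71 in the P7 animals and was high in 1 of 2 P14 and 3 of 5 P28 animals, so sex and age cannot be told apart between P4 and P7. Markers of other classes also differed with age in macrophage wells. The 6 granulocyte markers held 100 and 127 CPM at P4, with 3 or 4 of them detected, and 1002 to 2454 at P28 with all 6 detected. All 6 fibroblast markers were detected at both ages and held 1720 and 1833 CPM at P4 and 3445 to 6861 at P28, and the 6 mural markers held 67.6 and 157 at P4 and 244 to 388 at P28. At P28 at least 3 of 6 fibroblast markers were found in 32.4 to 85.2% of macrophage wells and at least 3 of 6 endothelial markers in 25.5 to 81.7%, against 17.3 to 38.8% for at least 5 of 9 macrophage markers. In C1q-rich P28 wells 5 of 9 macrophage markers were found in 53.2 to 68.3% and the fibroblast markers in 21.6 to 86.5%. At least 4 of 8 CM markers were found in 97.7 to 100% of P4 and 94.9 to 100% of P7 macrophage wells. For P14 the share was 76.9 to 98.8% and for P28 35.8 to 54.3%. Macrophage markers (5 of 9) were found in 52.2 to 55.8% of P4, 38 to 47.5% of P7 and 32.6 to 53.8% of P14 wells. The C1q rule was met by 3.77% of passing P4 wells and 48.1% of passing P28 wells, with 84.5% on 1 P28 chip. The name macrophage well thus stands for this rule and not for a checked cell type. The part of these differences in the members' levels was not tested. Of 5051 well barcodes, 4890 occurred on 2 or more chips, as position barcodes on this platform do.

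From P4 to P28 most resident genes had higher levels and Cx3cr1 a lower one. In macrophage wells 7 of the 10 members, namely Lyve1, Cd163, Timd4, Folr2, Cbr2, Plac8 and Ly6c2, lay higher in all 5 P28 animals than in both P4 animals, and 19.1% of the 13822 genes tested did the same. Cx3cr1 alone of the members lay lower in all P28 animals, as 9.54% of genes did, and Mrc1 and Ccr2 overlapped. The edgeR quasi-likelihood test over all genes, with Benjamini-Hochberg adjustment, called 0.449% of genes and none of the 10 members, while 8 members and 17.5% of all genes had an unadjusted p below 0.05. DESeq2 on the same sums called Lyve1, Cd163, Folr2, Cbr2, Plac8 and Ly6c2, all higher at P28, where it called 5.87% of all genes and 4.23% as higher. In C1q-rich wells 7 members again lay higher (12.6% of genes did), none lay lower (8.71% of genes did), Cx3cr1 overlapped, and edgeR called 0.0792% of genes and none of the 10 members.

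**Figure D1:**
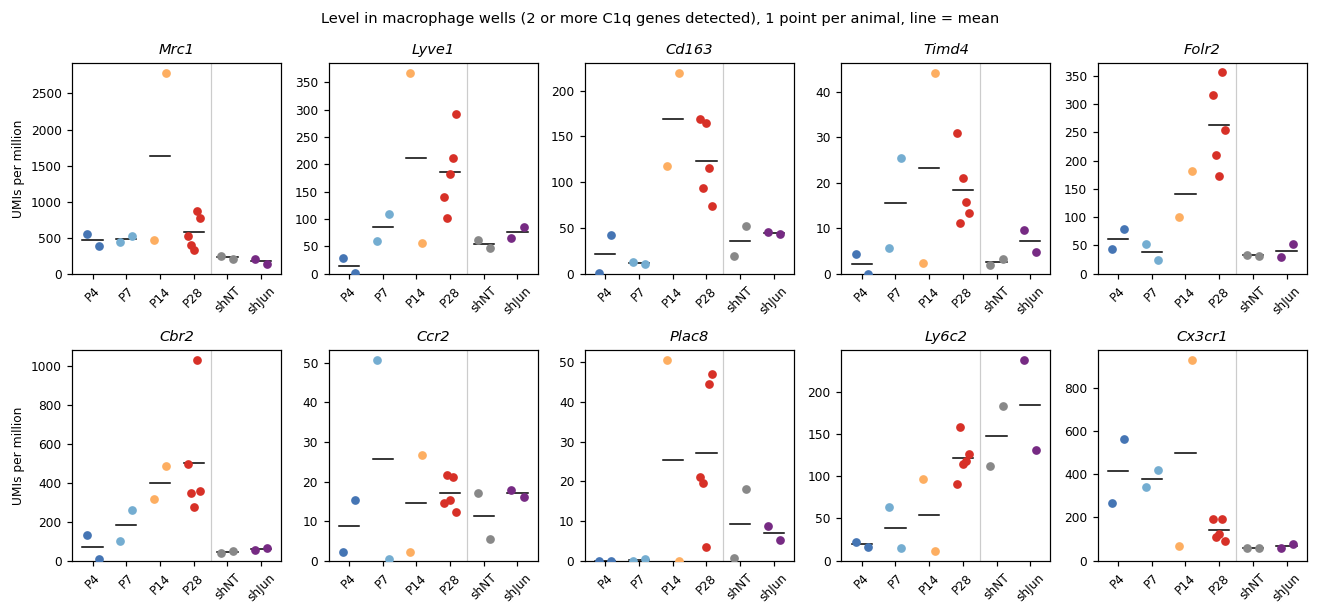
CPM (y axis, linear, own scale for each gene) of the 10 members in macrophage wells by stage and hairpin, with 1 point per animal and the mean as a line. Folr2 sits between 174 and 356 in the P28 animals and at 42.8 and 79.2 in the P4 animals, and the P14 animals stand apart for Mrc1 and Cx3cr1.

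Cbr2 held 134 and 7.27 CPM in the P4 animals, 104 and 262 in P7 animals, 318 and 484 at P14, and 494, 348, 276, 1031 and 356 at P28. Both P14 animals and all P28 animals thus lay above the P4 and P7 animals. The log2 change from P4 to P28 was 2.97 ± 0.88 (SE), with an edgeR adjusted p of 0.125. In C1q-rich wells the share of wells with a Cbr2 UMI was 11.4 and 2.94% at P4, 22.2 and 21.6% in P7 animals, 45.8 and 45.7% at P14 and between 53.1 and 68.0% at P28, an order in which no animal of a later stage fell below one of an earlier stage. At 2000 UMIs per well these shares were 5.71 and 2.94%, 13.3 and 13.5%, 33.3 and 25.7%, and 34.0 to 54.8%.

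Folr2 held 42.8 and 79.2 CPM at P4, 51.7 and 23.3 in P7 animals, 101 and 181 at P14 and 316, 211, 174, 356 and 254 at P28. P4 and P7 overlapped, and P14 and P28 overlapped through the P14 animal at 181. The change from P4 to P28 was 2.08 ± 0.55 on the log2 scale (edgeR adjusted p = 0.0959), and from P7 to P14 it was 2.42 ± 0.62 (adjusted p = 0.058). The share of C1q-rich wells with a Folr2 UMI was 22.9 and 11.8% at P4, 20 and 21.6% in P7 animals, 27.1 and 17.1% at P14 and 40.5 to 57.9% at P28, so by this measure the higher level was seen at P28 and not at P14.

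Cd163 was the one member that passed the main test in any comparison. It held 1.10 and 42.1 CPM at P4, 12.8 and 10.9 in P7 animals, 118 and 219 at P14 and 169, 94.1, 165, 115 and 73.9 at P28. From P7 to P14 it rose by 4.33 ± 0.97 on the log2 scale (edgeR adjusted p = 0.0371), where 1.23% of all genes passed. In C1q-rich wells, where 0.745% of genes passed, the change was 4.50 ± 0.96 (edgeR adjusted p = 0.0411), and Cd163 was detected in 11.1 and 5.41% of these wells at P7 against 27.1 and 34.3% at P14. The call was lost when any of P28 animals 1 to 4, either P7 animal or P14 animal 2 was left out, when chips replaced animals as the unit, when all 3 C1q genes or 3 of 6 general macrophage genes were required, and when P7 and P14 were fitted alone (edgeR adjusted p up to 0.215 over the alternatives, from 8.13e-05). The change from P4 to P28 was 2.37 ± 0.82 (edgeR adjusted p = 0.171). Its P4 side rests on 59 UMIs in all, and the 2 P4 animals lay far apart at 1.10 and 42.1 CPM.

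Lyve1 held 28.6 and 0.727 CPM at P4, 59.7 and 109 in P7 animals, 367 and 55.2 at P14 and 140, 102, 183, 211 and 292 at P28. The P4 animals were lowest and the P14 animals lay on either side of the P28 group. The P4 macrophage wells held 27 Lyve1 UMIs, 1.53% of those at P4, against 4.13% of the UMIs of all genes. Their P4 level was thus below that of all passing wells and is not read as expression by macrophages. Its change was 2.76 ± 1.08 from P4 to P7 (edgeR adjusted p = 0.272, with 0.0289% of genes called) and 3.85 ± 1.05 from P4 to P28 (adjusted p = 0.107) on the log2 scale. The share of C1q-rich wells with Lyve1 was within 32.8 to 38.5% in all 5 P28 animals and 2.94 to 15.6% in the P4 and P7 animals. The P14 animals lay in both ranges, at 37.5 and 8.57%. At P4 only 4 of 69 C1q-rich wells held a Lyve1 UMI.

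Timd4 was sparse. It held 4.39 and 0 CPM at P4, 5.69 and 25.5 in P7 animals, 2.32 and 44.2 at P14 and 31.0, 11.2, 21.1, 15.8 and 13.4 at P28. The P4 values rest on 4 UMIs in 3 wells of 1 animal, and a count of 0 in the other allows up to 2.18 CPM. The fitted change from P4 to P28 was 3.21 ± 1.39 on the log2 scale (edgeR adjusted p = 0.25). The share of C1q-rich wells with Timd4, 8.57 and 0% at P4 against 5.68 to 12.9% at P28, overlapped.

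Mrc1 did not follow the other resident genes. It held 544 and 379 CPM at P4, 437 and 521 in P7 animals, 466 and 2789 at P14 and 526, 394, 327, 862 and 772 at P28, and it was found in 54.1 to 80.7% of C1q-rich wells of every stage animal. The change from P4 to P28 was 0.39 ± 0.56 on the log2 scale (edgeR adjusted p = 0.763). From P7 to P14 it was 2.18 ± 0.68 (adjusted p = 0.0982) and from P14 to P28 −1.96 ± 0.51 (adjusted p = 0.112). P14 animal 2, alone on its chip, stood apart, with 1768 Mrc1 UMIs in 39 wells against 1006 in 86 wells of P14 animal 1. Without P14 animal 2 these changes were 0.66 and −0.40. Without P14 animal 1 edgeR called both, at 2.83 (adjusted p = 0.0175) and −2.58 (adjusted p = 0.00866).

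**Figure D2:**
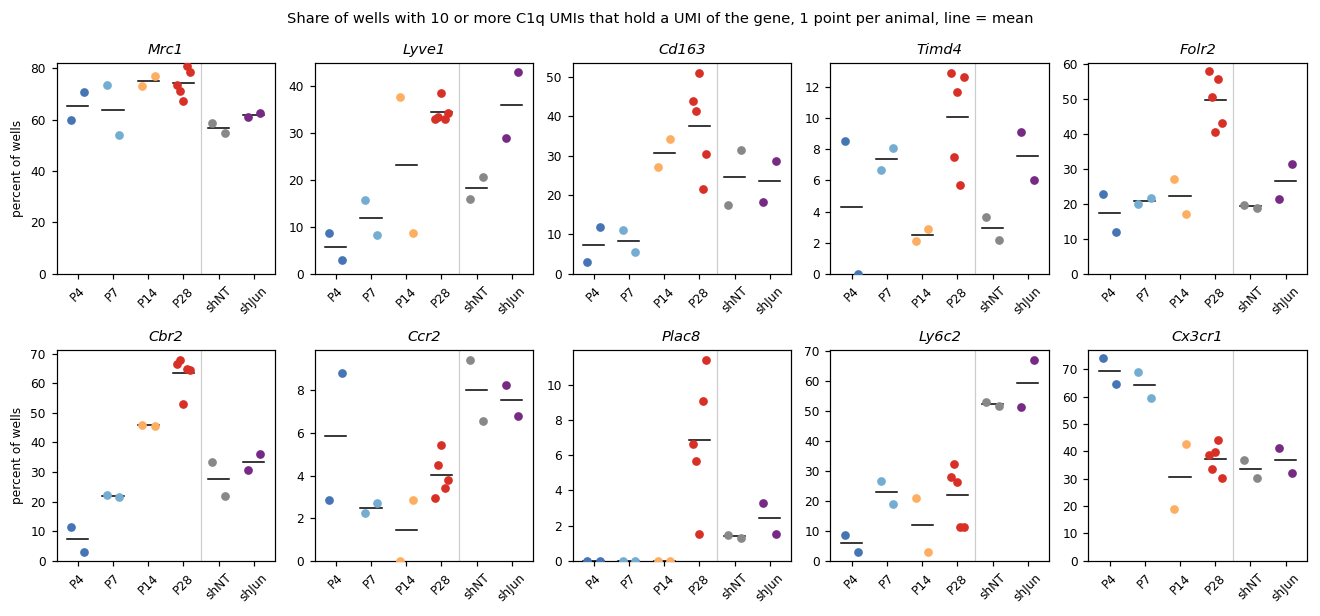
Percent of wells with at least 10 C1q UMIs in which each gene had a UMI (y axis, own scale for each gene), by stage and hairpin, with 1 point per animal and the mean as a line. Cbr2 climbs from 2.94 and 11.4% at P4 to between 53.1 and 68.0% at P28, while Cx3cr1 goes from 64.7 and 74.3% to between 30.4 and 44.3%.

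Cx3cr1, the fractalkine receptor, ran the other way. It held 266 and 565 CPM at P4, 339 and 421 in P7 animals, 69.5 and 931 at P14 and 193, 109, 126, 191 and 93.4 at P28. All 5 P28 animals lay below all P4 and P7 animals, and the P14 animals lay outside both ranges, 1 on each side. The change from P4 to P28 was −1.59 ± 0.59 on the log2 scale (edgeR adjusted p = 0.196) and from P14 to P28 −2.30 ± 0.59 (adjusted p = 0.107, with 0.253% of genes called). Without P14 animal 2 the latter was 0.28, and without P14 animal 1 it was −3.05 (edgeR adjusted p = 0.00357). In C1q-rich wells Cx3cr1 was found in 74.3 and 64.7% of wells at P4, 68.9 and 59.5% in P7 animals, 18.8 and 42.9% at P14 and 30.4 to 44.3% at P28. By CPM in those wells the groups overlapped (378 and 619 at P4, 150 to 398 at P28), with a log2 change of −0.77 ± 0.59 (adjusted p = 0.58). When each well was thinned to 2000 UMIs, the shares were 37.1 and 41.2% at P4 and 15.7 to 23.4% at P28. A lower level at P28 was not particular to Cx3cr1. Of 7 identity genes (C1qa, C1qb, C1qc, Csf1r, Adgre1, Cd68 and Fcgr1), 2 had a change above 0 from P4 to P28 in macrophage wells. Cd68 changed by −1.81 ± 0.44 on the log2 scale (edgeR adjusted p = 0.0746) and Fcgr1 by −2.15 ± 0.70 (adjusted p = 0.157). In C1q-rich wells 5 of 7 were above 0, with Cd68 at −1.07 ± 0.55 and Fcgr1 at −1.52 ± 0.74.

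Ccr2 was found in few wells at every stage. It held 2.20 and 15.3 CPM at P4, 50.7 and 0.543 in P7 animals, 2.32 and 26.8 at P14 and 14.7, 21.6, 15.5, 21.1 and 12.3 at P28. The 50.7 CPM at P7 rest on 107 UMIs in a single well of 59, and each P14 value also rests on 1 well, with 5 and 17 UMIs. Only the P28 animals lay close together, and the change from P4 to P28 was 0.87 ± 1.22 on the log2 scale (edgeR adjusted p = 0.756). Of C1q-rich wells 2.95 to 5.42% held a Ccr2 UMI at P28 and 2.86 and 8.82% at P4, and wells with no C1q UMI held it in 0.606% at P28 and 0.78% at P4.

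Plac8 had no UMI in the 89 macrophage wells of the P4 animals and 1 UMI in 109 at P7. It held 50.5 and 0 CPM at P14, all in 1 well of 86, and 21.2, 19.7, 3.39, 44.6 and 47.1 at P28. Over the group, whose animals ranged from 3.39 to 47.1 CPM, P28 held 15.7 CPM, about 12-fold the 1.31 that 3 counts would give at P4. In C1q-rich wells P28 held 8.05 CPM, about 5-fold the 1.61 that 3 counts would give there at P4. P28 wells without any C1q UMI, which include the B cell wells, held 15.5 CPM of Plac8, close to the level over all P28 macrophage wells. By animal, P28 animal 3 lay below that value at 3.39 and the other P28 animals above it, at 19.7 to 47.1. In C1q-rich wells all P28 animals lay below it, animal 3 at 4.39 and the others at 10.1 to 15.3. The level of Plac8 is therefore not read as expression by macrophages, and which cells its UMIs came from was not tested. In C1q-rich wells Plac8 was found in no well at P4, P7 or P14 and in 1.53 to 11.4% at P28.

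Ly6c2 held 22 and 16.7 CPM at P4, 63.0 and 14.7 in P7 animals, 96.9 and 11 at P14 and 90.4, 158, 115, 118 and 127 at P28. The change from P4 to P28 was 2.67 ± 0.83 on the log2 scale (edgeR adjusted p = 0.14). In C1q-rich wells it held 4.72 and 8.96 CPM at P4 and 83.4, 162, 97.5, 14.5 and 43.4 at P28 (3.44 ± 1.12, edgeR adjusted p = 0.273). Its level in wells without any C1q UMI was 41.3 CPM at P4, 178 at P14 and 65.1 at P28, and in C1q-free endothelial wells (at least 3 of 6 endothelial markers) 86.1, 339 and 80.5. At P4 and P14 the level in macrophage wells was therefore below that of C1q-free wells, and a level at or below that background is not read as expression by macrophages. At P28 all animals lay above that background in macrophage wells. In C1q-rich wells the P28 animals at 14.5 and 43.4 CPM lay below it. Which cells the P28 Ly6c2 UMIs came from was not tested.

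Where the UMIs lay differed between the members. At P28 macrophage wells held 47.2% of all UMIs of passing wells, and they held 97.4% of the Cbr2 UMIs, 96.6% of Timd4, 96.0% of Folr2, 95% of Cd163, 93.9% of Cx3cr1, 92.3% of Mrc1, 86.1% of Lyve1, 85.8% of Ccr2, 58.1% of Ly6c2 and 50.8% of Plac8. At P4, where macrophage wells held 4.13% of all UMIs, they held 89.8% of the Cbr2 UMIs, 87.6% of Folr2, 83.8% of Cx3cr1 and 65.7% of Mrc1. Lyve1 stood apart from these, as only 1.53% of its P4 UMIs lay in macrophage wells and 90.7% lay in wells with no C1q UMI. Ly6c2 had 1.96% and Plac8 0% of their P4 UMIs in macrophage wells, below the 4.13% share of all UMIs.

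**Figure D3:**
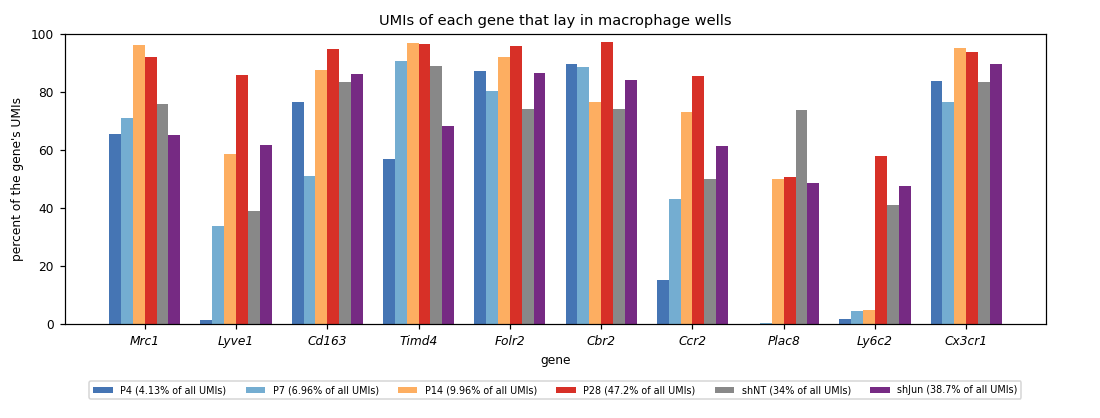
Percent of each member's UMIs in passing wells that lay in macrophage wells (y axis, from 0 to 100), with 1 bar per stage or hairpin and, in the legend, the same percent for the UMIs of all genes. At P28 the bars of Cbr2, Timd4, Folr2 and Cd163 reach 95 to 97.4, while those of Ly6c2 and Plac8 lie at 58.1 and 50.8.

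The members also differed in how they followed C1q within the P28 wells. From the 1979 wells without a C1q UMI through wells with 2 to 9, 10 to 29, 30 to 99 and at least 100 C1q UMIs, the share with Cbr2 was 3.64, 28.6, 46.3, 62.7 and 83.4%, and the share with Folr2 3.23, 20.9, 32.6, 46.8 and 74.1%. Mrc1 went from 10.3 to 91.8%, Cd163 from 3.08 to 64.2%, Lyve1 from 3.79 to 52.1%, Cx3cr1 from 2.88 to 59.4% and Timd4 from 0.404 to 20.6%. Ly6c2 showed no such climb, with 23.3, 27.3, 33.1, 19.2 and 22.5%, and Plac8 stayed between 1.67 and 5.29%. Wells with at least 100 C1q UMIs were also deeper (median 21693 UMIs against 6292), and at 2000 UMIs per well Cbr2 still went from 1.2 to 60.3% and Ccr2 from 0.172 to 0.845%.

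**Figure D4:**
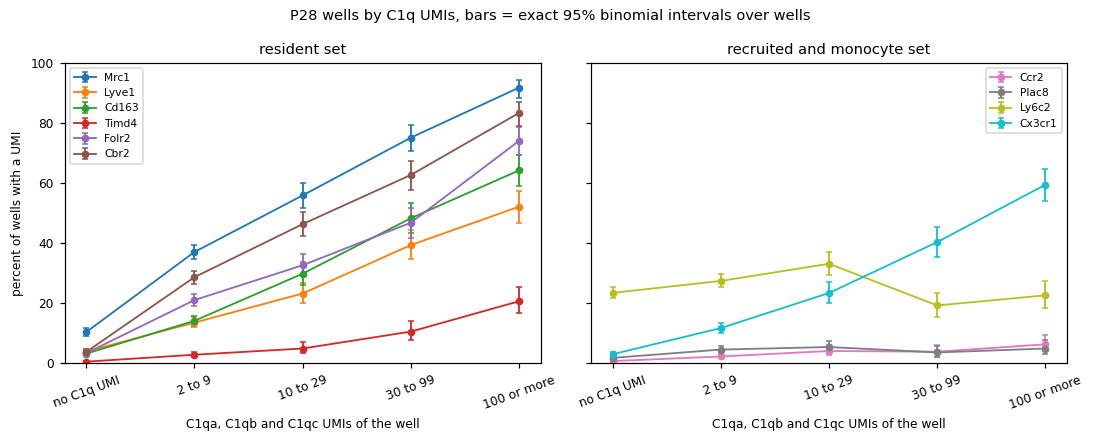
Percent of P28 wells with a UMI of each member (y axis) by the number of C1q UMIs in the well (x axis), for the resident set (left) and the recruited and monocyte set (right), with exact 95% binomial intervals that cover counting error only. The resident genes and Cx3cr1 climb with C1q, Cbr2 from 3.64 to 83.4%, and Ly6c2 stays between 19.2 and 33.1%.

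Resident genes also occurred together, and Cx3cr1 occurred with them too. Of the 1362 C1q-rich wells at P28, 76.5% of the 648 wells with Folr2 held Cbr2 as well, against 46.5% of wells without Folr2. Of the 144 wells with Timd4, 80.6% held Cbr2, 74.3% Folr2 and 60.4% Lyve1. Of the 61 wells with Ccr2, 54.1% held Cbr2, 39.3% Folr2 and 29.5% Lyve1, and 60.8, 47.6 and 35.5% of all C1q-rich wells did. Wells with Cx3cr1, 514 in all, held Cbr2 in 73.9%, Folr2 in 55.1% and Lyve1 in 41.4% of cases. The 63 wells with Plac8 held them in 69.8, 55.6 and 33.3%, and the 357 with Ly6c2 in 58.0, 46.5 and 35.0%. These shares were not matched for depth. Counting wells by Timd4, Lyve1, Folr2 and Ccr2, 55.9 to 67.5% of C1q-rich wells of each P28 animal held Timd4, Lyve1 or Folr2 but no Ccr2, as did 28.6 and 11.8% at P4. Wells with none of Timd4, Lyve1, Folr2 and Ccr2 made up 68.6 and 79.4% at P4 and 29.5 to 39.2% at P28. At 2000 UMIs per well the wells with none were 74.3 and 85.3% at P4 and 48.0 to 64.0% at P28. C1q-rich wells in which no resident gene was found were 31.9% at P4, 31.7% in P7 animals, 13.3% at P14 and 7.86% at P28.

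The genes whose UMIs went most closely with each member over the 3375 macrophage wells, out of 17286 genes, were as follows (Pearson r of log-scaled UMIs over wells that share chips and vary in depth, given as a description). For Folr2 they were F13a1 (0.46), Cbr2 (0.44) and Pf4 (0.42), and for Lyve1 F13a1 (0.35), Cbr2 and Wfdc17 (0.33 each). Cbr2 went with Gm11771 (0.61), Pf4 and F13a1. Mrc1, Cd163 and Cx3cr1 each had C1qb first, at 0.48, 0.35 and 0.35. Ly6c2 went with Ly6c1 (0.62) and with the endothelial genes Rgcc and Gpihbp1 (0.34 and 0.33). Timd4, Ccr2 and Plac8 had no gene at 0.3 or above.

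The P28 levels of Cbr2 and Folr2 were mostly lower in the CM part than in the NCM part of the centrifuged cells. In macrophage wells from NCM chips of P28 animals 1, 2, 4 and 5 Cbr2 held 576, 364, 1078 and 356 CPM, and in those from CM chips, with 65, 51, 14 and 11 wells, 76.1, 184, 203 and 361. Folr2 held 364, 209, 368 and 257 in NCM chips and 72.5, 232, 143 and 186 in CM chips. The CM chips alone overlapped with the P4 animals for both genes. The well reports of P28 animal 3 and of P4 and P7 named no CM or NCM part, so the comparison of ages within 1 part was not possible from them.

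Of other lists of macrophage genes, chosen for their known roles, few members passed. Of 19 tested other resident genes, 2 rose from P4 to P28, the lectin gene Mgl2 (log2 change 6.31 ± 1.08, edgeR adjusted p = 0.0118) and F13a1, which encodes a coagulation factor subunit (2.40 ± 0.44, adjusted p = 0.0182), and none fell. The list's median log2 change was −0.09 (9 of 19 above 0), against 0.17 for all genes, and in C1q-rich wells it was 0.99 (12 of 19 above 0), against 0.23, so its sign turned with the choice of wells. Mgl2 and F13a1 passed in both. Mgl2 held 0 and 2.91 CPM at P4 and 82.2 to 192 at P28, and F13a1 92.3 and 103 at P4 and 419 to 644 at P28. None of 18 other monocyte genes (median 1.94), 6 major histocompatibility complex class II genes (median 2.09), 6 genes of ligands for the members' receptors (median 1.69) and 16 general macrophage genes (median −0.61) passed by edgeR from P4 to P28. Their medians in C1q-rich wells were 1.42, 2.43, 2.11 and −0.12, and none passed there either. Of the general genes, Cd14, a co-receptor for lipopolysaccharide, rose from P7 to P14 (3.82 ± 0.77, adjusted p = 0.0266), as it also did in C1q-rich wells.

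With P14 left out of the fit, a choice made after seeing the data because its 2 animals stood apart, edgeR called 2.04% of genes from P4 to P28, among them 4 members, Lyve1 (adjusted p = 0.0434), Folr2 (0.0488), Plac8 (0.0491) and Ly6c2 (0.0377). Over all alternatives the adjusted p ranged from 6.7e-06 to 0.442 for Lyve1, from 0.00697 to 0.382 for Folr2, from 0.00194 to 0.967 for Plac8 and from 0.0146 to 0.673 for Ly6c2.

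The knockdown comparison asked whether the members differed in wells of shJun and shNT hearts that met the C1q rule. Markers went against calling these wells macrophages: at least 5 of 9 macrophage markers were found in 17.1 to 23.5% of them (898 to 1373 CPM), against 95.1 to 100% for 4 of 8 CM markers (54611 to 75590 CPM), 81.4 to 90.2% for 3 of 6 endothelial markers and 70.6 to 82.9% for 3 of 6 fibroblast markers. In C1q-rich wells 5 of 9 macrophage markers were found in 33.9 to 43.6% and the CM markers in 96.5 to 100%. The wells are therefore called C1q wells here, and their values are those of all RNA in such wells. The stage wells keep the name macrophage wells for the C1q rule alone, and their values too are those of all RNA in them. Jun itself held 86.6 and 105 CPM in C1q wells of the shNT animals and 79.4 and 112 in those of the shJun animals, an overlap (log2 change −0.14 ± 0.34, edgeR adjusted p = 0.988). In wells with no C1q UMI, Jun held 58.9 and 79.8 in shNT and 54.8 and 56.4 in shJun. There both shJun animals lay below both shNT animals, with 56.4 next to 58.9 at the closest, and how many genes did the same was not counted. Over all passing wells Jun held 66.5 and 86.1 CPM in shNT and 61.8 and 93.7 in shJun, an overlap. The level of Jun thus did not check the hairpin, and the groups follow the well reports.

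No member passed between hairpins. The edgeR test called 0% of 17104 genes (883, or 5.16%, had an unadjusted p below 0.05, and none of the 10 members did), and DESeq2 called 134 genes (0.783%) and no member. Lyve1, Timd4 and Cbr2 lay higher in both shJun animals than in both shNT animals, as 20.3% of all genes did, and Mrc1 lay lower, as 11.8% did. A count of 3 higher and 1 lower among 10 is near these shares. The other 6 members overlapped. In C1q-rich wells 5 members lay higher in both shJun animals, namely Lyve1, Timd4, Cbr2, Ccr2 and Plac8, as 20.5% of genes did, none lay lower, as 12.1% of genes did, and Mrc1 and the other 4 overlapped. The edgeR test called 0 genes there too, at 809 with an unadjusted p below 0.05, of the members Plac8 alone.

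Among the resident genes Mrc1 held 248 and 210 CPM in shNT and 209 and 130 in shJun (log2 change −0.53 ± 0.35, edgeR adjusted p = 0.903). Lyve1 held 62.3 and 46.1 in shNT and 65.7 and 85.9 in shJun (0.37 ± 0.35, adjusted p = 0.925). Timd4 held 1.95 and 3.21 in shNT and 9.50 and 4.68 in shJun (1.33 ± 0.86, adjusted p = 0.903). The animals numbered 1 shared their chips across hairpins, as did those numbered 2, and these directions held within both chip sets. Cbr2 held 41.0 and 51.2 in shNT and 56.8 and 63.4 in shJun (0.25 ± 0.38, adjusted p = 0.974), Folr2 33.1 and 32.0 in shNT and 29.2 and 52.3 in shJun (0.19 ± 0.45, adjusted p = 0.988), and Cd163 19.2 and 52.3 in shNT and 46.0 and 43.7 in shJun. Lyve1 was found in 15.9 and 20.6% of C1q-rich wells in shNT and in 28.9 and 42.8% in shJun, and Timd4 in 3.62 and 2.19% against 9.09 and 6.06%. At 2000 UMIs per well the Lyve1 shares were 7.97 and 5.70% against 11.6 and 14.0%. The 6 lymphatic endothelial markers, all detected, held 166 and 67.1 CPM in the C1q-rich wells of the shNT animals and 123 and 551 in those of the shJun animals, with at least 3 of 6 in 7.97 and 3.07% of wells against 1.65 and 9.85%, and their part in the Lyve1 values was not tested. In C1q-rich wells Mrc1 held 518 and 377 CPM in shNT and 407 and 235 in shJun, Cbr2 90.2 and 42.2 against 132 and 123, Folr2 71.3 and 59.2 against 67.0 and 95.5, and Cd163 43.6 and 112 against 76.4 and 76.2.

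Of the recruited genes Ccr2 held 17.0 and 5.39 CPM in shNT and 18 and 16.0 in shJun (0.53 ± 0.68, edgeR adjusted p = 0.958), Plac8 0.674 and 18 against 8.69 and 5.20, Ly6c2 112 and 183 against 238 and 131 and Cx3cr1 58.7 and 60.0 against 57.3 and 78.3. All 4 overlapped. In C1q-rich wells Ccr2 held 25.1 and 8.31 CPM in shNT and 33.4 and 28.2 in shJun, and did not overlap. Plac8 there held 0.171 and 0.165 CPM, from 2 and 3 UMIs, in shNT and 15.5 and 4.09, from 97 and 110 UMIs in 4 wells each, in shJun (5.68 ± 1.39 on the log2 scale, edgeR adjusted p = 0.871). Ly6c2 and Cx3cr1 overlapped in these wells too. T cell marker genes held 604 CPM in the C1q wells of shJun animal 2 and 12.7 to 16.4 in the other 3 knockdown animals, and Xist was high in shJun animal 1 alone. The part of both in these values was not tested.

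**Figure D5:**
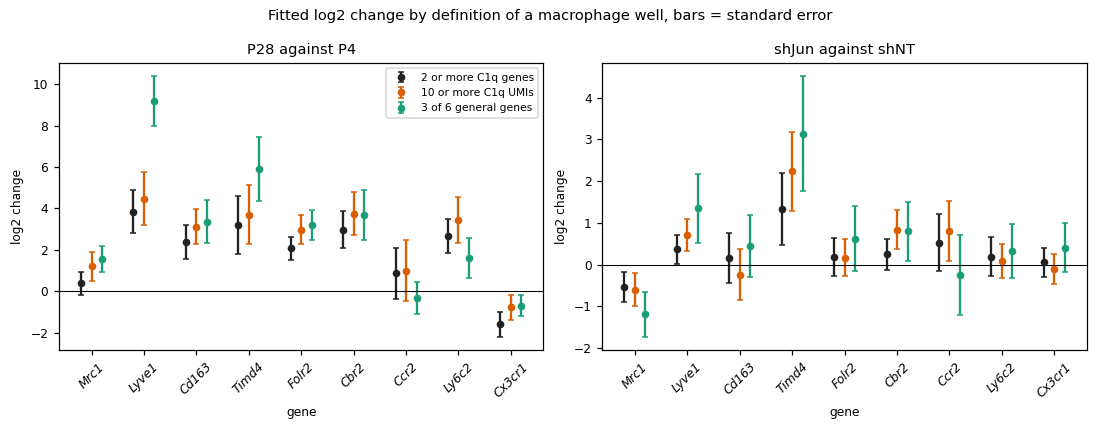
Fitted log2 change (y axis) of 9 members from P4 to P28 (left) and between shNT and shJun (right), under the 3 ways of choosing the wells, with bars as SE. Folr2 lies at 2.08 with 2 or more C1q genes and 2.98 with at least 10 C1q UMIs, Ccr2 changes sign with the choice of wells in both panels, and Plac8 is left out because its P4 wells held no UMI.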

How the data were processed

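Hearts gave single cells on ICELL8 chips, in 18 samples. Per the study's methods the authors aligned reads to mm10 with STAR (2.5.2b), assigned them to Ensembl genes with featureCounts (Subread 1.4.6-p1) and collapsed duplicates by UMI. The deposited matrices hold raw UMI counts for each gene and well, as the authors made them. In all 23656 wells the matrix summed to the total in the well report. Samples were grouped by age from the labels. The labels call the knockdown samples mixed, so hairpin and animal came from the well reports, as did the P28 animals. Where a report names animals by short codes that recur on 2 chips, they were taken as the same animal.

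Wells needed at least 500 genes and log10 UMIs within 2 SD of the mean of their group. Spike-ins, the reporter and 35 mitochondrial genes were left out, as were 181 control wells. No doublet caller was run, because wells were imaged for single cells. UMIs of macrophage wells were summed per animal (at least 20 wells) and tested with edgeR 4.0.16 (TMM, filterByExpr, quasi-likelihood, Benjamini-Hochberg over all genes, threshold 0.05; R 4.3.3), with the 4 stages in 1 fit and the knockdown in another; all 10 members passed the filter on low counts. SE is the absolute log2 change over the square root of F. Whether animals came from separate litters is not given, so p-values measure the spread between these animals. Shares have exact Clopper-Pearson 95% intervals, which like the limits from 3 counts cover counting error only. On simulated counts the stage fit (13784 genes) recovered 7.23% of genes changed by 2 and 63.0% of those changed by 4 on the log2 scale (P28 against P4), and the knockdown fit (17994 genes) 0 and 20.7%. Members, gene lists and tests were chosen with earlier results of these data known. The named genes were all 10 members, the identity genes, and up to 4 genes per list that passed. Animals with the same number shared chips across hairpins, which the well reports show, and a fit with the number as a block was an alternative. Other alternatives were DESeq2 1.42.0, upper-quartile scaling, other filters, well definitions, units and left-out animals.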

Additional observations from a re-analysis of the deposited data

Results flagged for a closer look

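With 40 groups of 5 P28 animals examined, 3 values stood off by Dixon's test, where chance alone flags about 1 group in 20. Cbr2 held 1031 CPM in the macrophage wells of P28 animal 4, while the other P28 animals held 276 to 494. In wells with at least 10 C1q UMIs, Lyve1 was found in 38.5% of wells of P28 animal 3, against 32.8 to 34.2% in the others. In the same wells of P28 animal 3, Cbr2 was found in 53.1%, against 64.6 to 68.0% in the others. P28 animal 3 gave 1113 of the 3052 macrophage wells at this age.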

How the results depend on the processing

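The number of genes called depended strongly on the tool and filter. From P4 to P7 (4 genes) it was 585 with DESeq2, 176 without a filter on low counts, 0 with 3 of 6 general macrophage genes and at least 10 wells, 1 without the well filter, 0 with sums per chip, 2 with the 2 stages only and 13 without P14. From P7 to P14 (170) it was 1505 and 626 with DESeq2 and without the filter, 84 with all 3 C1q genes, 94 with at least 10 C1q UMIs, 26 with the general genes and at least 10 wells, 0 per chip, 64 with at least 30 C1q UMIs and 2 with the 2 stages only. From P14 to P28 (35) it was 601, 425, 7 with at least 10 C1q UMIs, 0 with the general genes, 16 without the well filter, 0 per chip, 97 with wells thinned to 5000 UMIs, 5 with at least 30 C1q UMIs and 23 with the 2 stages only. From P4 to P28 (62) it was 811, 529, 20 with all 3 C1q genes, 10 with at least 10 C1q UMIs, 23 and 12 with the general genes (at least 20 or 10 wells), 6 per chip, 130 thinned, 24 with at least 30 C1q UMIs, 405 with the 2 stages only and 290 without P14. Between hairpins (0) it was 134 with DESeq2 and 546 without the filter. Leaving out 1 animal gave 0 to 15 genes from P4 to P7, 11 to 892 from P7 to P14, 7 to 699 from P14 to P28, 25 to 308 from P4 to P28 and 0 between hairpins; the lowest came without P4 replicate 1 (P4 to P28), P7 replicate 1 (P7 to P14) and P28 replicate 5 (P14 to P28), and all 4 highest came with a P14 animal left out. The cause of these shifts was not tested. The settings with at least 10 wells for the general genes or 30 C1q UMIs, and the fit without P14, were chosen after seeing the data.

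With the chip-sharing animals as a replicate block, 0 genes passed between hairpins (759 at an unadjusted p below 0.05) and no call changed.

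Directions turned in a few members. From P4 to P28 Mrc1 was −0.067 when thinned, and Ccr2 was −0.31 and −0.38 with the general genes (20 or 10 wells), −0.20 per chip and −0.080 thinned. From P14 to P28 Cx3cr1 was 0.28 without P14 replicate 2 and −3.05 without P14 replicate 1, the range over left-out animals. Between hairpins Folr2 was −0.14 with all 3 C1q genes, −0.13 thinned, −0.25 with at least 30 C1q UMIs and −0.22 to 0.50 over left-out animals, the lowest without shJun replicate 2; Cbr2 was −0.036 thinned; Ccr2 was −0.24 with the general genes and −0.040 to 1.46 over left-out animals, the lowest without shNT replicate 2. The median log2 change of all genes from P4 to P28 was 0.17 with TMM and 0.31 with upper-quartile scaling. Leaving out wells with markers of another class left 2 wells and could not be fitted. Groups of 2 animals limit what a stage or hairpin fit can show.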

Other observations

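Some of the members' UMIs outside macrophage wells lay in wells of other classes, named from at least 3 of 6 marker genes (4 of 8 for CMs) and without any C1q UMI. Lyve1 held 78.2 CPM in endothelial wells at P4, and 1246 in the 3 lymphatic endothelial wells at P28. Plac8 held 2144 CPM in the 4 B cell wells at P28. Ly6c2 held 339 CPM in the 505 endothelial wells at P14, where it was found in 61.0% of wells.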
